A study of Mus musculus with 12 samples.

Results

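Solute carriers are membrane proteins that move amino acids, sugars, ions, metals, lipids, vitamins and metabolites across cell and organelle membranes. The names group them into numbered families by sequence, and families largely share a kind of cargo. In mammary tissue they supply nutrients, export lactate and load milk with minerals. The genes described here are the 58 solute carrier genes (names starting with Slc and a family number) found in either of the 2 deposited gene tables, out of 2876 gene names in all. The V-125 table held 33 of them among its 1589 genes, and that for bexarotene 31 among 1784. Of these, 6 were in both tables, 27 in the V-125 table only and 25 in the bexarotene table only. No gene was left out for a group with counts of 0 in every tumor.

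RNA was sequenced from 12 mammary tumors of female MMTV-Neu mice, which carry the Neu (HER2) transgene under the mouse mammary tumor virus promoter and develop mammary tumors. The tumors fell into 3 groups of 4, on control diet, on V-125 and on bexarotene, each agonist given at 100 mg/kg of diet for 10 days, with the same oil and ethanol vehicle in all diets. V-125 and bexarotene are rexinoids, agonists of the retinoid X receptor (RXR), a nuclear receptor that pairs with many partners on DNA. The animals' age is not given in the sources used here. Each library came from a piece of whole tumor, so fewer cells of a type and less RNA per cell cannot be told apart.

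The tables held only genes with an unadjusted p under 0.05 in the authors' own comparison, so every gene below had already been selected on the difference described. The values are therefore a description of selected genes, and a gene outside the tables has no value here. V-125 and control libraries held 15571690 to 22574865 reads on genes, with group medians of 17864015 and 18389133. For bexarotene only the authors' group means were used, with no value per tumor, no spread and no test. Of 8 epithelial markers, Epcam and Cdh1 were in the V-125 table and Krt8 and Krt18 in the bexarotene table. Marker genes outside the tables could not be checked against the tissue label.

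Promoter stretches are shown first for 4 genes with lower means under an agonist, as examples of the motifs searched, and genes with higher means carried the same motifs (counts follow the sequences). Slc16a3 and Slc16a1 encode the lactate and monocarboxylate transporters MCT4 and MCT1. Slc30a2 encodes the zinc transporter ZnT2, and Slc1a4 the neutral amino acid transporter ASCT1. Each stretch has 110 bases of RefSeq sequence (GRCm38.p6), written 5′ to 3′ along the gene's strand. Slc16a3 covers chr11:120948957-120949066 on the plus strand and ends at the base before a RefSeq start inside the annotated gene. Slc16a1 covers chr3:104638444-104638553 on the plus strand, from 220 bases before its start. Slc30a2 covers chr4:134343356-134343465 on the plus strand and also ends at the base before a RefSeq start inside the annotated gene. Slc1a4 covers chr11:20332710-20332819 on the minus strand, from 106 bases before to 4 after its start. Capitals mark ACGTG (the core of the hypoxia response element) or its reverse complement in Slc16a3 and Slc30a2, the E-box CACGTG in Slc16a1, and the reverse complement of TGATGNAAN (a form of the amino acid response element) in Slc1a4.
Slc16a3: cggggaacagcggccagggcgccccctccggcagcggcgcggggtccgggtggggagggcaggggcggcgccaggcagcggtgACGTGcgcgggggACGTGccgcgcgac
Slc16a1: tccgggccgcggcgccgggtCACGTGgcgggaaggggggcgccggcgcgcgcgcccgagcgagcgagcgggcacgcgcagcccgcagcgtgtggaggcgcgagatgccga
Slc30a2: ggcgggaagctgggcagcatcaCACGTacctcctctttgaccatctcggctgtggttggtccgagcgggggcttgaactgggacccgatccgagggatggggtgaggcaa
Slc1a4: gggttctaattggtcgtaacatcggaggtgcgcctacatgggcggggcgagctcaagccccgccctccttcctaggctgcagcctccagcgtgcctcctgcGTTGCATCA

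Promoter windows of 300 bases (250 before to 50 after a start) were at hand for 40 of the 58 genes, and both strands were searched. ACGTG was found in 15 of 40 genes (37.5%), against 21.8% of all 27025 genes with a window. Of the 15, 8 had higher and 7 lower means with the agonist whose table lists them. CACGTG, which contains ACGTG, was found in 6 genes (15%), against 8.09% of all genes. The nuclear receptor half-site AGGTCA was found in 4 genes (10%: Slc25a39, Slc26a9, Slc45a3 and Slc7a7), against 18.1% of all genes. Direct repeats of AGGTCA spaced by 1 or by 4 bases, arrangements bound by RXR pairs, were in none of the 40, and in 0.0481% and 0.0148% of all genes. TGATGNAAN was found in 3 genes (7.5%), Slc1a4 and Slc26a10 with lower means and Slc7a7 with a higher one, against 4.5% of all genes, and the sterol response element TCACNCCAC only in Slc23a2 among the 40 (2.5%), against 1.44%. A match is only a run of letters, and no match says nothing about binding elsewhere.

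The first comparison asked which solute carrier genes differed between V-125 and control tumors, and in which direction. Mean normalized counts were higher with V-125 for 22 of the 33 genes (66.7%), against 51.4% of all genes in the table, and lower for 11. Every V-125 tumor lay above every control tumor for 10 genes (30.3%), against 21.1% of the table, and below for 3 genes (9.09%), against 17.6%. These 13 genes included Slc5a3, Slc20a2, Slc38a10, Slc41a1, Slc11a2, Slc39a11, Slc25a32, Slc25a35 and Slc35a3 above, and Slc30a2, Slc6a17 and Slc27a3 below. Without V-125 replicate 3 the groups were apart for 22 genes, 7 of them below, and 5 lay below without V-125 replicate 2 or without control replicate 3. In FPKM the groups were apart for 12 genes, 9 above and 3 below. Leaving out a tumor makes separation easier for any gene. Shares over the whole table were taken only for normalized counts in all tumors, so these alternative counts have none beside them.

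**Figure D1:**
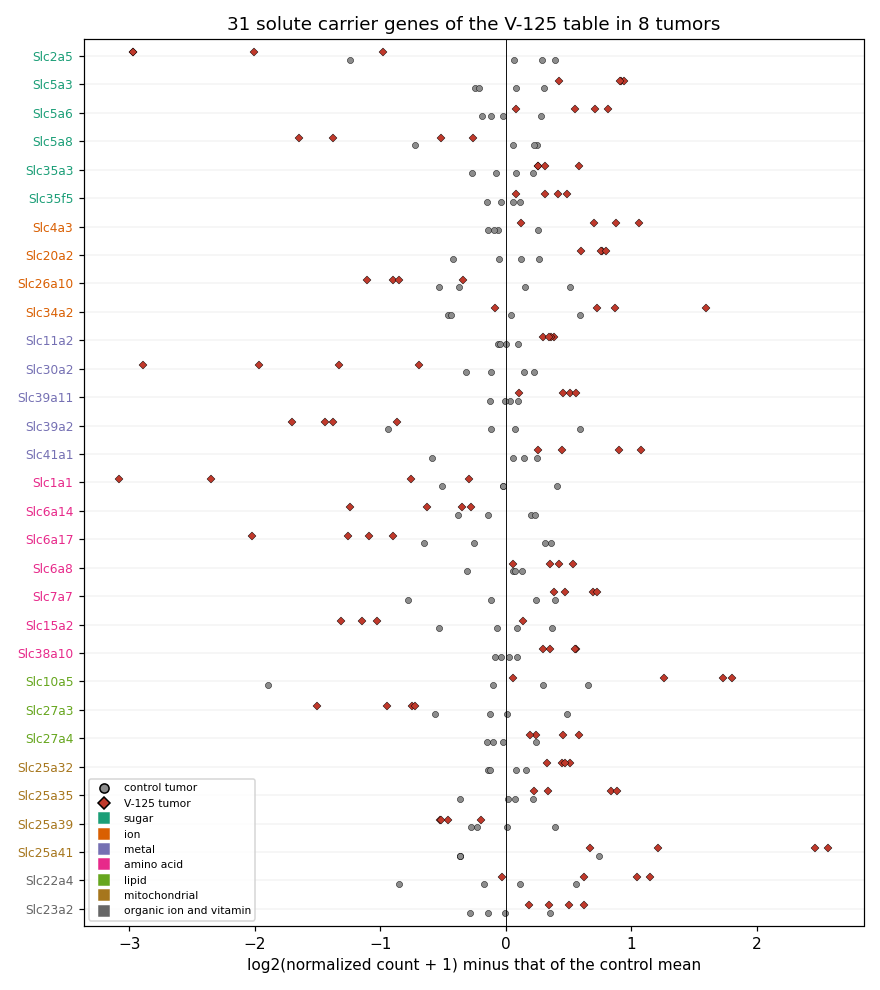
Each row is 1 of 31 solute carrier genes of the V-125 table, and the x axis gives log2(normalized count + 1) in each tumor minus that of the control mean. Grey circles are the 4 control tumors and red diamonds the 4 V-125 tumors, name colors mark the cargo class, and the groups do not overlap for 12 of the 31 genes drawn.

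By edgeR's quasi-likelihood test, 30 of the 33 genes passed the filter on low counts and none had an adjusted p under 0.05, as for 0% of the 1333 genes tested in the table. Their adjusted p ran from 0.654 to 1, and 23 of the 30 had an unadjusted p under 0.05 (953 of 1333 in the table). The limma test called none. DESeq2 called 2 of the 30 (6.67%), Slc5a3 and Slc20a2, against 7.43% of the table, and edgeR with adjustment over the table alone called the same 2, against 9% of the table. Their median log2 fold change was 0.42, beside 0.36 over all genes tested, and the median size regardless of sign was 0.59, beside 0.77. A log2 fold change beyond 1 in either direction was found for 4 of the 30 (13.3%), against 34% of the table. Among these, Slc10a5 was higher and Slc1a1, Slc6a17 and Slc30a2 were lower. None of the 30 changed sign when any tumor was left out. The genes had been selected on this difference in the same tumors, so a kept sign adds no separate evidence.

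**Figure D2:**
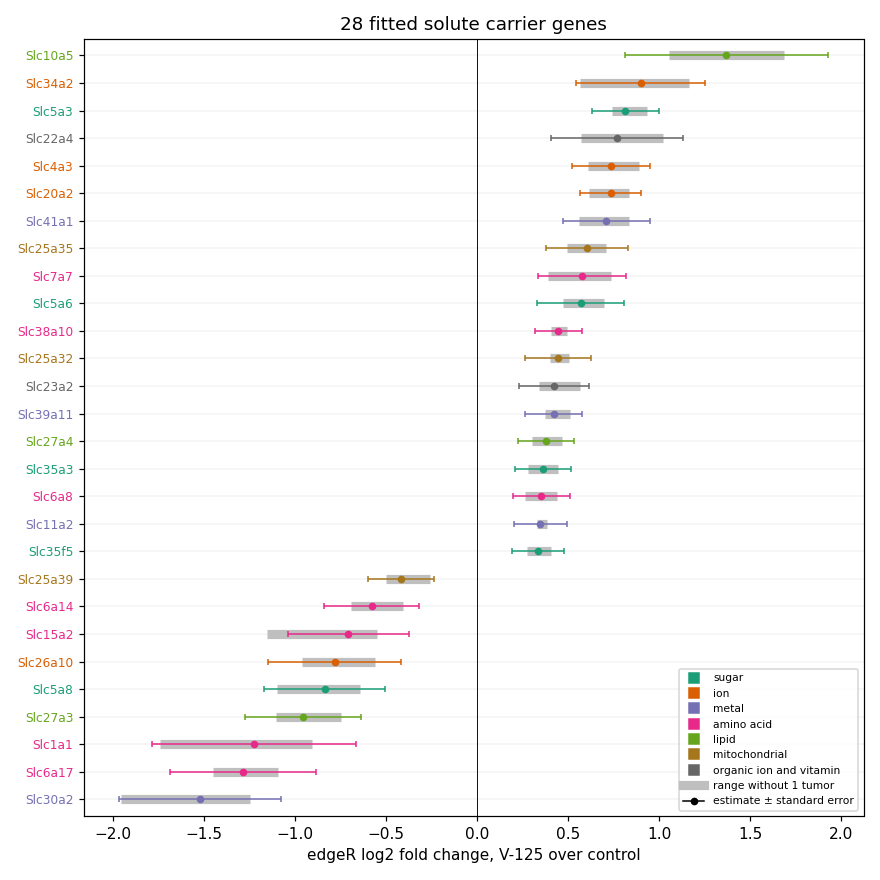
Points are edgeR log2 fold changes of V-125 over control for 28 of the fitted genes, with bars of 1 standard error and grey bands for the range when each tumor was left out in turn. Estimates run from -1.52 (Slc30a2) to 1.37 (Slc10a5), 19 above 0 and 9 below, and no band crosses 0. The genes were selected on this difference in the same tumors.

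The sugar class (families 2, 5, 35, 37 and 45) had 4 genes higher and 2 lower with V-125, and a median log2 fold change of 0.36 over the 5 fitted. Families follow sequence, so the class also holds carriers of other cargo. Slc5a3, the sodium and myo-inositol cotransporter, lies at chr16:92058322-92087473 and shares 159 exonic bases with Mrps6 on the same strand. Its normalized counts were 3697, 5206, 5311 and 5185 in the V-125 tumors and 2924, 2320.1, 2379 and 3405 in the control tumors. All V-125 tumors were above all control tumors, with replicate 1 lowest among them, and the log2 fold change was 0.81 ± 0.18 (SE, n = 4 and 4, edgeR adjusted p = 0.654). Slc5a8, which carries monocarboxylates, had counts of 558, 1013, 1210.4 and 463 with V-125 and 1720.1, 1697, 879 and 1506 in control tumors. Only control replicate 3 lay among the V-125 values, and the log2 fold change was -0.84 ± 0.33 (edgeR adjusted p = 1).

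Slc5a6, which carries the vitamins biotin and pantothenate, had mean normalized counts of 264 ± 54.8 (SD, n = 4) with V-125 and 178 ± 26.8 in controls, so the 3 members of family 5 did not all point the same way. Slc35a3 carries UDP-N-acetylglucosamine into the Golgi and overlaps Gm43191 by 275 exonic bases on the same strand. It had counts of 3296, 3296, 3426 and 4134 against 2285, 2914, 2601 and 3209. Slc35f5, a less characterised member of the same family, had counts of 1702.5, 1789.5, 1347 and 1579.8 against 1149, 1244, 1377 and 1327, and here V-125 replicate 3 lay inside the control range. Slc2a5, the fructose transporter, was near the detection limit, at 0, 0.95, 2.98 and 0 with V-125 and 2.31, 9.25, 7.19 and 8.54 in controls, and was not fitted.

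In the ion class 4 of 5 genes were higher, with a median log2 fold change of 0.73. Slc20a2, the sodium-dependent phosphate transporter PiT-2, lies at chr8:22476788-22569612. Its normalized counts were 1885, 2117, 2098 and 2167 with V-125 and 926, 1194, 1355 and 1495 in controls. The groups were apart, and the log2 fold change was 0.73 ± 0.17 (edgeR adjusted p = 0.654). Slc34a2, another sodium-dependent phosphate transporter (NaPi-IIb), had counts of 1557, 1413, 802 and 2572 against 1282, 618, 629 and 875. The groups overlapped, and the log2 fold change of 0.90 ± 0.35 was 0.56 without V-125 replicate 4.

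Slc4a3, the anion exchanger AE3, had counts of 1016, 600.3, 899.6 and 1149 with V-125 and 528, 660.1, 499.96 and 515 in controls. Only V-125 replicate 2 overlapped the controls. Slc26a10, an anion transporter relative, was the lower gene of the class, with counts of 36.8, 37.99, 54.6 and 31.7 against 77.2, 99.4, 53.5 and 47.8. It shares 715 exonic bases with B4galnt1 on the opposite strand, and whether counting used strand is not given in the sources used here.

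The metal class had 3 genes higher and 2 lower, and the zinc families stood on both sides. Slc30a2, whose product ZnT2 moves zinc into vesicles and milk, lies at chr4:134343181-134354484, and its promoter stretch is shown above. Its normalized counts were 19.4, 93.1, 37.7 and 59.2 with V-125 and 121, 139, 167 and 176 in controls. The groups did not overlap, and its log2 fold change of -1.52 ± 0.44 (edgeR adjusted p = 0.873) was the lowest of the 30 fitted genes. Slc39a2, a zinc importer too low to be fitted, had counts of 5.11, 6.65, 9.93 and 6.34 against 17.3, 28.9, 19.97 and 9.39. Slc39a11, a zinc transporter of the same family, went the other way, at 793, 823, 622 and 852 against 589, 528, 616 and 575.

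Slc41a1, a magnesium transporter at chr1:131827493-131848865, had counts of 4653, 7289, 5297 and 8211 with V-125 and 2584, 4040.2, 4301 and 4632 in controls. The lowest V-125 tumor lay just above the highest control, and the log2 fold change was 0.71 ± 0.24 (edgeR adjusted p = 0.982). Slc11a2, the iron importer DMT1, had counts of 558, 524, 548 and 541 against 408, 414, 427 and 458, a small difference with a narrow spread in both groups (log2 fold change 0.35 ± 0.15).

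Milk protein genes were also lower in V-125 tumors in the mean. Of 7 lactating alveolar markers, Csn1s1 and Wap were in the V-125 table, and their summed FPKM (fragments scaled by gene length and library size) was 99.98 to 2049 in V-125 and 2213 to 4536 in control tumors. Csn1s1 was lower in every V-125 tumor. Wap overlapped, with control replicate 4 at 33.3 normalized counts and the V-125 tumors at 45.5 to 142.5. The 2 epithelial markers in the table were also lower in the mean, at a summed 841 to 1018 FPKM with V-125 and 1097 to 1571 in controls. Epcam was lower in every V-125 tumor, while Cdh1 overlapped, at 4565 to 6523 against 5436 to 9150 normalized counts. Endothelial markers went the other way, with Kdr and Plvap (2 of 7 markers in the table) summing to 40.5 to 55.5 FPKM with V-125 and 21.5 to 30.3 in controls. Among leukocyte markers only Cd2 (1 of 9) was in the table, at 0.101 to 6.27 against 0 to 0.178 FPKM. No macrophage, fibroblast or adipocyte marker was in the table, and 2 of 7 erythroid markers were, both lower in the mean. Hba-a2 was at 0 in every V-125 tumor and at 27.7, 0, 23.2 and 0.854 normalized counts in the controls. Hbb-bt overlapped, at 36.7 to 203 with V-125 against 107 to 343. Of 9 muscle markers, Myh4 was higher and Mb lower in the mean. The part of these cells in the solute carrier values was not tested.

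The amino acid class (families 1, 6, 7, 15 and 38) had 3 genes higher and 4 lower, with a median log2 fold change of -0.58. Slc6a17, a neutral amino acid transporter known from synaptic vesicles, had normalized counts of 35.8, 31.3, 27.8 and 15.9 with V-125 and 84.2, 42.8, 56.7 and 87.1 in controls. The groups did not overlap, with a log2 fold change of -1.28 ± 0.40 (edgeR adjusted p = 0.927). Slc1a1, a glutamate transporter, had counts of 19.4, 139.6, 101 and 32.8 against 228, 120.2, 169 and 169. V-125 replicate 2 lay inside the control range, and the log2 fold change of -1.22 ± 0.56 ran from -1.74 without that tumor to -0.91 without V-125 replicate 1. In GENCODE vM21, Slc1a1 shares 2631 exonic bases with 4430402I18Rik on the opposite strand. The deposited length of Slc1a1 is 6170 bases against 8257 exonic bases in that annotation. How much of the overlap lay in the exons counted is therefore not known.

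Slc38a10, of the family of sodium-coupled neutral amino acid transporters, was the gene of this class with all V-125 tumors above the controls, at 5851, 5827, 4874 and 5077 against 3748, 4031, 3875 and 4214 (log2 fold change 0.45 ± 0.13, edgeR adjusted p = 0.877). Slc7a7, which encodes the transporting subunit y+LAT1 of a cationic amino acid exchanger, had counts of 1129, 1317, 1061 and 1346 with V-125 and 474, 961, 1072 and 752 in controls, overlapping in V-125 replicate 3 and control replicate 3. Within family 6, the creatine transporter gene Slc6a8 had a log2 fold change of 0.35 ± 0.16 and Slc6a14, a broad neutral and cationic amino acid transporter, one of -0.58 ± 0.26. Slc15a2, the peptide transporter PEPT2, had counts of 1194, 976, 2674 and 1099 against 1674, 3139, 2312 and 2583, and V-125 replicate 3 stood inside the control range. Of 28 genes of the amino acid response (Atf4 targets and regulators), 3 were in the V-125 table and all were lower in the mean. Aldh1l2, a mitochondrial folate enzyme, was lower in every V-125 tumor, at 27.8 to 69.3 against 75.1 to 149 normalized counts.

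Mitochondrial carriers (family 25) were higher in 3 of 4 cases. Slc25a35 had normalized counts of 372, 344, 527 and 544 with V-125 and 297, 342, 228 and 309 in controls, apart by under 2 counts at the nearest pair, while its FPKM values overlapped (5.15 in V-125 replicate 2 and 5.16 in control replicate 2). It shares 1151 exonic bases with Rangrf on the opposite strand. Slc25a32, a folate and FAD carrier, had counts of 312, 354, 338 and 345 against 225, 227, 262 and 277, also with no overlap. Slc25a39, needed for mitochondrial glutathione import, was lower, at 5518, 6942, 5767 and 5560.1 against 10416, 6575, 8014 and 6775. Its groups overlapped, and the log2 fold change of -0.42 ± 0.18 was -0.26 without control replicate 1. Slc25a41 was close to the detection limit, at 6.13, 6.65, 1.99 and 1.06 with V-125 and 0, 1.16, 0 and 0 in controls, and was not fitted.

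The lipid class held Slc10a5, a member of the bile acid transporter family, and a pair of fatty acid transport proteins. Slc10a5, at chr3:10331734-10335656, had normalized counts of 42.9, 146, 100.3 and 139.6 with V-125 and 10.4, 50.9, 65.5 and 38.4 in controls. V-125 replicate 1 lay inside the control range, and the log2 fold change of 1.37 ± 0.56 (edgeR adjusted p = 1) was the highest of the 30 fitted. Slc10a5 shares 268 exonic bases with Gm38303 on the same strand. Slc27a3 was lower in every V-125 tumor, at 49.1, 83.6, 85.4 and 73.0 against 198, 129, 95.04 and 143. Slc27a4 had counts of 3713, 2917, 2827 and 3389 against 2931, 2226, 2299 and 2436, so the paired relatives differed in direction, with log2 fold changes of -0.96 ± 0.32 and 0.38 ± 0.15.

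All 3 genes of the organic ion and vitamin class were higher in the mean, and in each the groups overlapped. Slc22a4, the ergothioneine transporter OCTN1, had normalized counts of 290.2, 137, 215 and 311 with V-125 and 77.2, 207, 124 and 151 in controls. Slc23a2, an ascorbate transporter, had counts of 524, 585, 713 and 654 against 378, 459, 419 and 589.9. The log2 fold changes were 0.77 ± 0.36 and 0.42 ± 0.19 in that order. Among other transporters, 6 of the 7 listed ABC transporter genes (of 44) were higher with V-125, none called by edgeR. Abca8a lay above the controls in every V-125 tumor, at 21.1 to 114.9 against 7.99 to 20.8 normalized counts, and so did Abcb10. For the other listed ABC genes the groups overlapped. Slco2b1 was the only listed member (of 15) of the organic anion transporting polypeptides, with a log2 fold change of 1.32 ± 0.45. Its groups overlapped, at 103.6 to 430.2 with V-125 against 58.05 to 121.1 normalized counts, and V-125 replicate 1 was the highest. Of 22 genes for partners of solute carriers, 5 were in the V-125 table, 2 of them higher and 3 lower. Among these, Bsg, the chaperone of MCT1 and MCT4, had a log2 fold change of -0.41 ± 0.19, with groups that overlapped.

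Compared by level per length, the listed genes spanned a wide range. In control tumors the highest was Slc25a39 at 160.02 ± 36.1 FPKM (SD, n = 4), with 119.5 ± 12.98 in V-125 tumors. Slc41a1 followed at 43.9 ± 10.1 FPKM (71.7 ± 18.6 with V-125). Slc38a10 at 34.3 ± 1.65 and Slc27a4 at 31.1 ± 4.07 FPKM were neighbours whose control means differed by less than the SD of the more variable gene. With V-125 they stood at 46.7 ± 4.50 and 40.4 ± 5.48 FPKM. At the other end, Slc25a41 had 0.0120 ± 0.0241 FPKM in controls and 0.165 ± 0.119 with V-125.

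**Figure D3:**
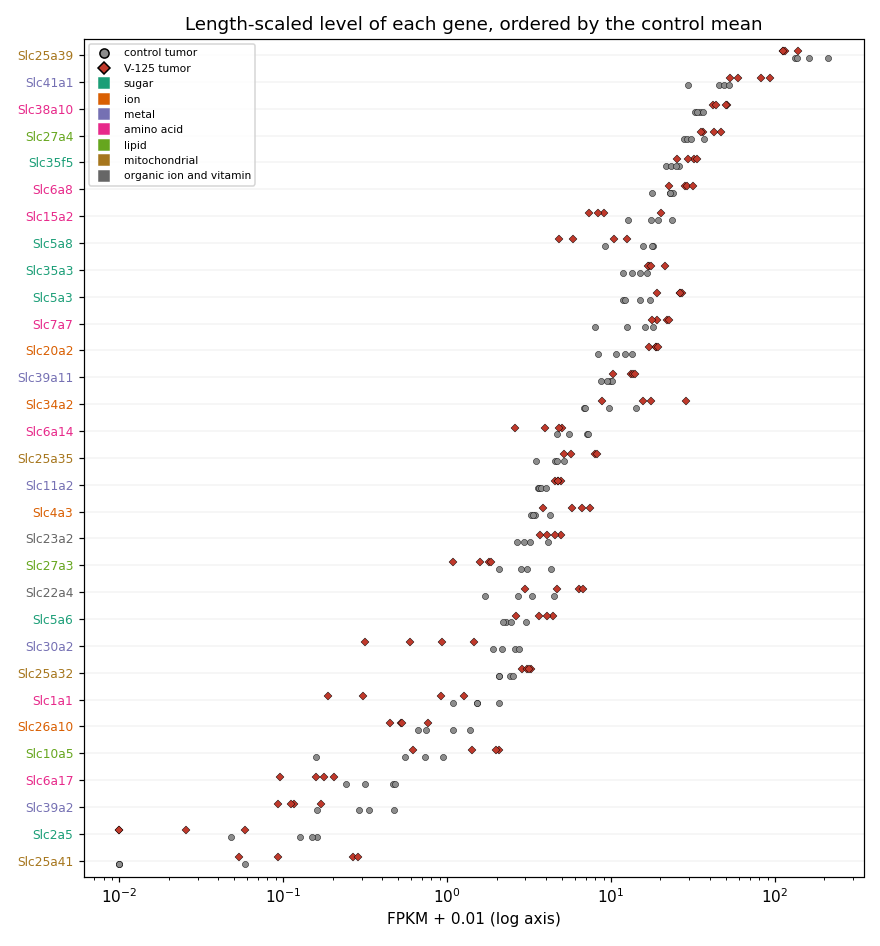
FPKM + 0.01 on a log axis in each tumor for 31 genes of the V-125 table, ordered by the control mean, with grey circles for control and red diamonds for V-125 tumors. Control means run from 0.0120 FPKM (Slc25a41) to 160.02 FPKM (Slc25a39).

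The second comparison set bexarotene tumors against the controls, using the authors' group means of normalized counts. The bexarotene mean was higher for 13 of the 31 listed genes (41.9%), against 43.3% of the table, and lower for 18. On the scale log2 of (mean + 1), 4 genes were past 2-fold higher (12.9%), against 16.2% of the table, and 11 past 2-fold lower (35.5%), against 28.1%. The 4 include Slc25a41, which was near the detection limit and also enters the median that follows. The median log2 ratio was -0.75, beside -0.56 over all genes of the table. None of these differences could be set against a spread between tumors.

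Members of the monocarboxylate and dicarboxylate transporter families lay on both sides. The mean for Slc16a3 (MCT4, at chr11:120948480-120960868) was 7.97 with bexarotene and 75.4 in controls, a log2 ratio of -3.09. Slc16a1 (MCT1) had means of 78.8 and 153, a log2 ratio of -0.95. Slc16a4, another member of the monocarboxylate transporter family, was higher instead, at 142 and 76.4. The dicarboxylate transporter genes Slc13a2 (1.15 and 15.4) and Slc13a3 (4.93 and 18.7) were low in both groups and lower with bexarotene. Slc13a2 shares 632 exonic bases with the antisense gene Slc13a2os.

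Amino acid carriers were lower for 3 of 4 genes, with a median log2 ratio of -1.09. Slc1a4 (ASCT1), whose promoter stretch above matches the letters TGATGNAAN, had means of 107 with bexarotene and 285 in controls (log2 ratio -1.40). Slc6a15, which prefers branched-chain amino acids, had 81.1 and 218 (-1.41), and the taurine transporter gene Slc6a6 had 504 and 865 (-0.78). Slc7a1, the arginine and lysine transporter CAT-1, was higher, at 785 and 551 (0.51). Of the 28 amino acid response genes, 6 were in the bexarotene table and all had lower means: Aldh1l2, Atf5, Nupr1, Cebpb, Eif4ebp1 and Stc2, with log2 ratios from -1.40 (Aldh1l2) to -0.66 (Eif4ebp1).

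The sugar class was split, with 4 genes higher and 4 lower. Slc2a10, a facilitative glucose transporter, had means of 6.50 with bexarotene and 18.8 in controls, and Slc45a3, a sugar transporter relative, had 161 and 378. Slc37a2, a sugar phosphate exchanger, had 47.3 and 97.8, while the 4 higher genes were all of family 35, whose best-known members carry nucleotide sugars: Slc35a3, Slc35a5, Slc35f5 and Slc35g1, with log2 ratios of 0.39 to 0.57. Slc35e4, of the same family, was lower (-0.69).

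Ion carriers, a class that here includes the dicarboxylate transporter genes Slc13a2 and Slc13a3 described above, were also split, 4 and 4. Slc12a5, the potassium and chloride cotransporter KCC2, had means of 26.4 and 7.53 (log2 ratio 1.68). Slc26a9, a chloride transporter, had 89.2 and 57.1. Slc8b1, the mitochondrial sodium and calcium exchanger, was lower, at 839.7 and 1415. Of the metal genes, Slc40a1 (ferroportin, the iron exporter) had 656 and 1195, and Slc30a2 was lower too. Slc48a1, a heme transporter, had 1172 and 1789.9. Slc52a3, a riboflavin transporter, was higher, at 51.003 and 23.3, and Slc22a21, a carnitine transporter, lower, at 40.97 and 87.8. Slc25a48, linked to mitochondrial choline import, was at 0.921 and 10.8, near the detection limit with bexarotene.

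**Figure D4:**
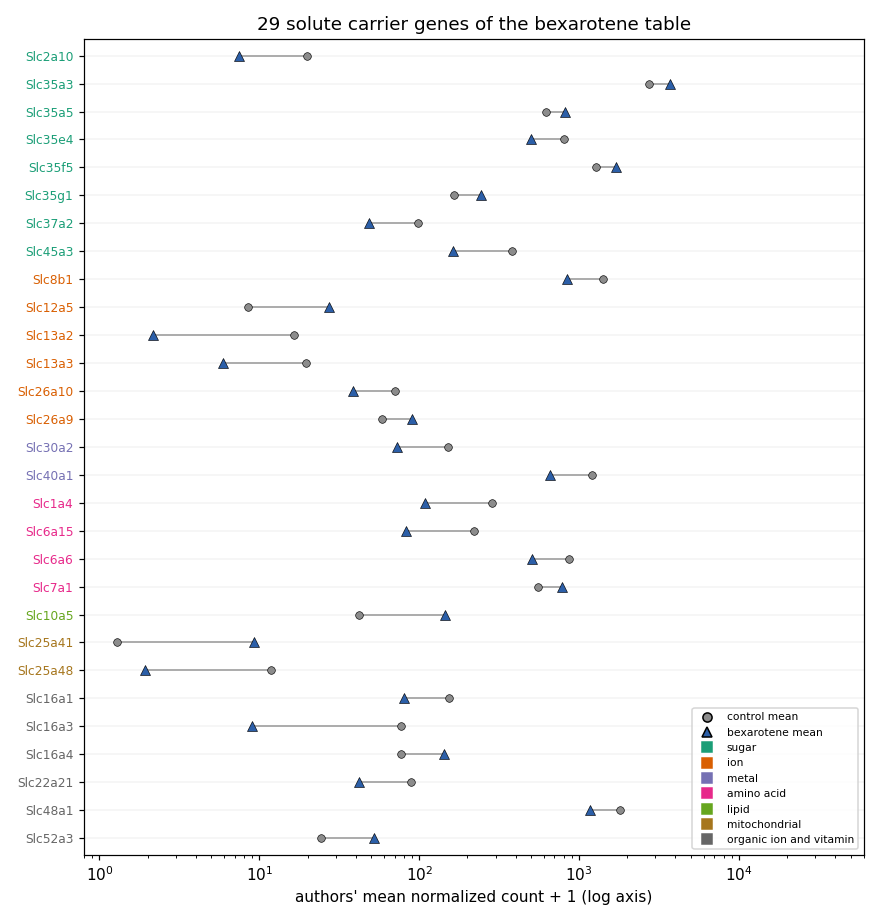
The authors' mean normalized count + 1 on a log axis for 29 genes of the bexarotene table, with grey circles for control and blue triangles for bexarotene, joined per gene and colored by cargo class. The widest gap to the left above a control mean of 50 is Slc16a3, from 75.4 to 7.97, and no spread is shown because only group means were used.

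Markers of several cell types also had different means with bexarotene. Of 8 epithelial markers, Krt8 (12215 with bexarotene and 16888 in controls) and Krt18 (13150 and 19345) were lower. Of the 8 macrophage markers, 5 genes, Csf1r, C1qa, C1qb, C1qc and Cd68, had lower means with bexarotene, with C1qa at 752 and 2023. Of 8 adipocyte markers, Plin4 (52.4 and 11.3) and Fabp4 (530.2 and 157) were higher. Of 7 lactating alveolar markers, Csn1s2a, Csn2 and Wap were lower, Csn2 at 13278 and 66296. Erythroid genes (4 of 7 in the table) were lower as well, with Hba-a2 listed at 0 with bexarotene and 12.9 in controls. The part of these cells in the solute carrier means was not tested.

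The 6 genes in both tables are set side by side, and because both comparisons use the same control tumors their directions are not independent. Slc10a5 had a mean of 107 normalized counts with V-125, 143 with bexarotene and 41.3 in controls. Slc35a3 had 3538, 3724 and 2752 in that order, and Slc35f5 1605, 1705 and 1274. Slc30a2 had 52.4 with V-125 and 71.2 with bexarotene, against 151 in controls, and the bexarotene mean lay inside the range of the V-125 tumors. Slc26a10 had 40.3, 37.3 and 69.5. Slc25a41 had 3.96, 8.29 and 0.289, too low for its ratio to be read alone. The log2 ratios of the means were 1.36 with V-125 and 1.78 with bexarotene for Slc10a5, 0.36 and 0.44 for Slc35a3, 0.33 and 0.43 for Slc35f5, -1.51 and -1.06 for Slc30a2, and -0.77 and -0.87 for Slc26a10. Whether the agonists differed at equal dose and time was not tested for any of the 6, since bexarotene had means alone.

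**Figure D5:**
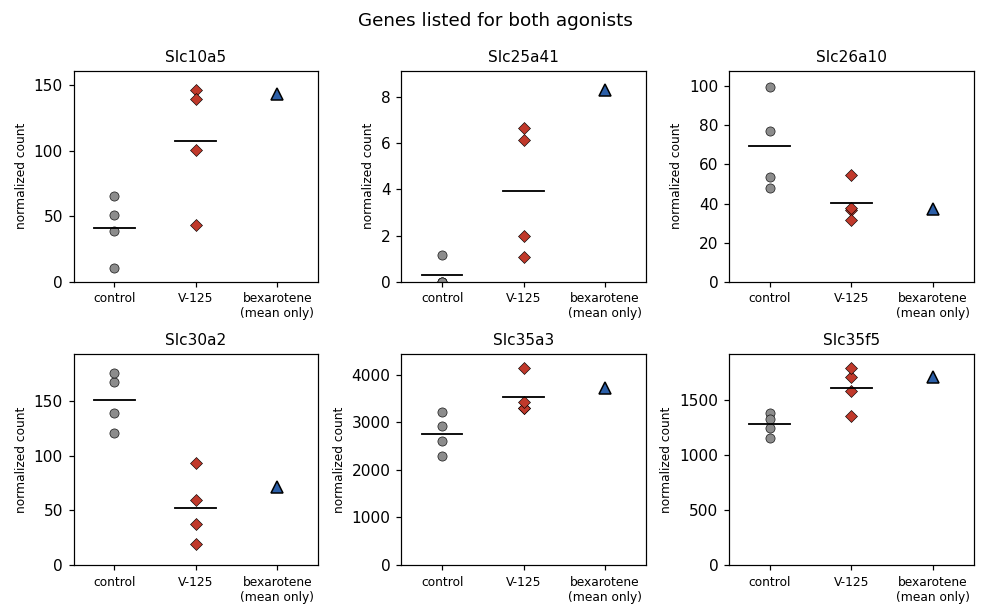
Normalized counts of the 6 genes in both tables, with grey circles for each control tumor, red diamonds for each V-125 tumor, a line at each group mean and a blue triangle for the authors' bexarotene mean. The bexarotene mean of Slc30a2, 71.2, lies below all 4 control tumors, and that of Slc25a41, 8.29, above all V-125 and control tumors.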

How the data were processed

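Bulk RNA sequencing of polyadenylated RNA was analysed from 8 tumors (4 V-125, 4 control) with a value per tumor, and from group means for bexarotene. The submitters' processing notes name STAR 2.6.1d, featureCounts 1.5.0-p3 and limma. The genome build is not given in the sources used here, and the coordinates of all 33 solute carrier genes in the V-125 table equal those of GRCm38 (GENCODE vM21). The authors deposited, per gene, raw read counts, normalized counts (a signal scaled by size factors) and FPKM for each V-125 and control tumor, and mean normalized counts per group for bexarotene. The authors' columns of log2 fold changes, p-values and adjusted p-values were not used, except to check that all unadjusted p-values lay under 0.05.

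Raw counts as deposited were tested with edgeR 4.0.16 (R 4.3.3) by its quasi-likelihood test, after filterByExpr and with the authors' size factors. Because the tables held only genes at an unadjusted p under 0.05, p-values were adjusted by Benjamini and Hochberg's method as if all 21951 protein-coding genes had been tested. The study used 4 mice per group. Replicate numbers did not pair the tumors. Alternatives were limma 3.58.1 (voom), DESeq2 1.42.0, TMM factors, no filter, adjustment over the table alone, a replicate block and leaving out each tumor. Bexarotene ratios used a pseudocount of 1. Depth limits counting precision only. SD is the spread between tumors. SE is the edgeR log2 fold change, without its sign, divided by the square root of its F statistic. This SE rests on variances pooled in part over the 1333 genes tested, so it is not the spread between tumors of that gene alone. Those genes had been selected on the same difference, so the SE and the p-values may be too small. Code was tested on simulated data.

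Named genes were, per cargo class, the 2 with the largest V-125 fold change, those with groups apart and a log2 fold change of 1 or more, the 2 with the largest bexarotene ratio at a mean of at least 10, any in both tables with opposite directions, and the 5 highest in control FPKM. Some genes that match the rule are not reported here by name, although the counts over the 58 genes may hold them. Others were named after their values were seen. The members and lists were chosen with earlier results of these data known. Sequences came from RefSeq, and 18 genes without a window are named only.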

Additional observations from a re-analysis of the deposited data

Results flagged for a closer look

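Among the 66 groups of 4 tumors checked (33 genes in V-125 and control tumors), a tumor far from the other 3 was found in 4 groups, and chance flags about 1 in 20 groups. For Slc15a2, the peptide transporter PEPT2, V-125 replicate 3 had 2674 normalized counts and the others 976.46 to 1193.6. For Slc5a3, the myo-inositol transporter, V-125 replicate 1 was the lowest at 3697.3, with the others between 5184.7 and 5311.3, and it was still above every control tumor. Slc35a3, the UDP-N-acetylglucosamine transporter, had 4133.6 in V-125 replicate 4 and 3295.6 to 3425.7 in the others. Slc25a41 had 1.156 normalized counts in control replicate 2 and 0 in the other control tumors.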

How the results depend on the processing

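No solute carrier gene was called by edgeR with TMM factors, with no filter, with limma, under the replicate block or without any tumor (range 0 to 0). In these settings no gene of the whole table was called either, apart from 1 without control replicate 3. DESeq2 called 2 (6.67%, against 7.43% of the table) and adjustment over the table alone called 2 (against 9%), both times Slc5a3 and Slc20a2. The median log2 fold change of 0.42 was 0.38 with TMM factors, which moved the median of all genes by -0.0475, and 0.37 to 0.44 when each tumor was left out. TMM factors were taken from the tested genes alone, all selected on this difference, so they are a weak check of the scaling. Same-numbered tumors correlated at -0.194 to 0.120 and 1 of 4 V-125 tumors correlated best with its own number, so the numbers were not taken as pairs, and the replicate block gave a median of 0.42 with 0 called. FPKM in place of normalized counts gave 12 genes with groups apart and 9 above, without Slc25a35. Leaving out a tumor, which makes separation easier, moved the 13 genes with groups apart to between 14 and 22, the 10 above to between 11 and 15 and the 3 below to between 3 and 7. No share over the table was taken under these alternatives or in FPKM, so the counts cannot be set against it. The bexarotene median of -0.75 was -0.74 with a pseudocount of 10 and -0.77 over genes with a mean of at least 10, and no tumor could be left out there. Of 252 alternative values of the 18 fitted genes that the naming rule chose, 250 kept direction and side of the threshold, 2 (Slc5a3) passed the threshold and 0 reversed. These genes were selected on the difference in the same tumors, so a kept direction adds little. Genes under about 10 normalized counts were limited by depth.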
